A study of Mus musculus with 6 samples.

Results

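Aminoacyl-tRNA synthetases and the scaffold proteins that hold several of them together were followed in mouse C2C12 myotubes exposed to the saturated fatty acid palmitate. Members were taken by a rule on gene symbols that uses no measured value, but the rule was chosen with earlier results of these data known. It takes symbols made of a single letter and "ars", with or without a final 1 or 2, together with Eprs, Farsa, Farsb, Aimp1 and Aimp2. The rule found 51 of the 22626 probe sets that are not array controls, and these belong to 28 of the 12393 genes that a probe set names alone. Of the 28 genes, 20 were counted as cytosolic and the 8 whose enzyme symbol ends in 2 as mitochondrial. Aimp2 was placed with the cytosolic genes, because its final 2 is a number in a scaffold family, and Gars and Kars each serve both compartments.

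A synthetase joins an amino acid to its matching transfer RNA, so that the ribosome can use it in protein synthesis. In mammals most cytosolic and mitochondrial synthetases come from separate nuclear genes, and several cytosolic ones sit in a multisynthetase complex built on the scaffolds Aimp1, Aimp2 and Eef1e1. Many cytosolic synthetase genes are known targets of ATF4, the transcription factor translated when amino acids run short or the endoplasmic reticulum is stressed, and ATF4 with a C/EBP partner binds a composite element whose core reads TGATGCAA.

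C2C12 is an immortalised mouse myoblast line that fuses into myotubes when serum is lowered. The cells were kept in 20% fetal bovine serum and differentiated for 5 days in 2% horse serum, then held for 16 h with 1% bovine serum albumin (BSA) alone in the control group or with 500 µM palmitate, which had been bound to fatty-acid-free BSA, in the treated group. Each group had 3 samples, each hybridised to an Affymetrix mouse 430A 2.0 array, and the labels do not say whether the 3 came from separate cultures. The p-values therefore measure the spread between these arrays, which may be technical.

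The deposited values are MAS 5 signals, a linear brightness per probe set, on arrays scaled to nearly the same trimmed mean (1500.5 to 1500.6). Log2 signals correlated at 0.943 to 0.959 within groups and at 0.883 to 0.910 between them. The 18 spiked hybridisation control probe sets were 0.30 higher on the log2 scale on the palmitate arrays. The 18 myotube markers measured were all bright enough to test, and none passed limma at an adjusted p under 0.05. At an unadjusted p under 0.05, 0 were higher and 4 lower, against 13.7% and 19.8% of all genes. Their median log2 fold change was -0.18, with 5 of 18 above 0. Their summed signal ran from 238804 to 353628 on BSA and from 261609 to 276242 on palmitate arrays. All 5 proliferation markers fell, with sums of 20997 to 24902 against 9990 to 10450. Both tested fibroblast markers fell too, with sums over the 5 measured of 11314 to 15027 against 2586 to 3357. Of the myoblast markers Myod1 fell, of 4 tested. Neither of the macrophage markers tested, of 6 measured, passed the adjusted threshold (1 higher at an unadjusted p under 0.05). Sums over the 6 ran from 1173 to 1685 on BSA and from 1899 to 2093 on palmitate arrays, though most were too dim to test. No adipocyte or endothelial marker was bright enough to test. The part of these markers in the synthetase results was not tested, and in bulk RNA fewer cells of a type and less RNA per cell cannot be told apart.

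The promoters of the members were searched for the core of the ATF4 element. RefSeq windows of 250 bases before to 50 bases after the annotated start (build GRCm38.p6) matched 19 of the 28 genes, 13 cytosolic and 6 mitochondrial. The stretches below come from genes whose signal was higher with palmitate; Tars is shown because it holds TGATGCAA upstream of the start, and Gars, chosen after its match and values were seen, because it holds the form with 1 free base, TGATGNAA. Capitals mark the match, which in each lies on the opposite strand and so reads as its reverse complement. The Tars stretch is chr15:11399659-11399908 (minus strand) and the Gars stretch chr6:55037751-55038000 (plus strand), each the 250 bases just upstream of the start.
Tars: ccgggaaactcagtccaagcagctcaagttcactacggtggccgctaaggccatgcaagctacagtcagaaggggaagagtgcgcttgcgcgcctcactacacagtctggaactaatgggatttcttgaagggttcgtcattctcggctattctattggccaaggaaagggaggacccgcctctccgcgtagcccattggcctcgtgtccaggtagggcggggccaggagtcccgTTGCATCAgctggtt
Gars: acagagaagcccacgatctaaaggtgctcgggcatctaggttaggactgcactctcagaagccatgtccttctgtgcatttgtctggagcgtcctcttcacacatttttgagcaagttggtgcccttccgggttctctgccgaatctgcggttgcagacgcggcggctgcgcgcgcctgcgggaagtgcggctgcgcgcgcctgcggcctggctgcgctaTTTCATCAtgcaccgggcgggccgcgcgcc

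Positions are given for 3 of the 4 genes with TGATGCAA. The match was at -15 to -8 in Tars, counting the start as 1, and downstream of the start at 4 to 11 in Yars and at 8 to 15 in Iars. In Gars the match to TGATGNAA was at -30 to -23. Both strands were searched, and a gene counted when any of its windows held the motif. TGATGCAA was in 4 of the 8 cytosolic genes that rose, 0 of the 5 that did not pass the test and 0 of the 6 mitochondrial genes. It was in 279 of all 27025 genes with a window (1.03%), and in 11 of 504 tested genes that rose (2.18%), which include the 4 members. TGATGNAA, which includes TGATGCAA, was in 5 of the 8, 0 of the 5 and 0 of the 6 genes, against 4.51% of all genes with a window.

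The other motifs searched were TGACNNNGC, CCACG and CACGTG. TGACNNNGC, the antioxidant response element, was in 4 of the 19 member genes (21.1%) and in 14% of all genes with a window. It was also in 18.1% of tested genes that rose and 17.1% of those that did not pass, near the share of the members. By call, TGACNNNGC was in 2 of the 8 cytosolic genes that rose, 2 of the 5 that did not pass and 0 of the 6 mitochondrial genes. CCACG, the short part of the endoplasmic reticulum stress element, was in 12 of 19 (63.2%) and in 35.5% of all genes with a window. It was also in 63.7% of tested genes that rose and 52.8% of those that did not pass, so the members were near the share of tested genes. CACGTG, the E-box that MYC binds, partly overlaps CCACG where they meet. It was in 5 of 19, among them Farsb, Iars, Tars and the mitochondrial Ears2, and in 8.09% of all genes with a window. By call, CACGTG was in 4 of the 8 cytosolic genes that rose, 0 of the 5 that did not pass and 1 of the 6 mitochondrial genes. That split is close to the split of TGATGCAA, and CACGTG was in 17.1% of tested genes that rose. A match is a run of letters and does not show that a factor was bound.

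On arrays scaled as deposited, palmitate-treated myotubes had higher signals for most of the cytosolic synthetase and scaffold genes. Scaling to the spiked controls, given further below, left fewer calls than the counts here. Of the 20 cytosolic genes, 12 rose and 0 fell (limma, Benjamini-Hochberg adjusted p under 0.05), where 7.92% of the 7931 genes tested rose and 12.3% fell. At an unadjusted p under 0.05, 15 were higher and 0 lower, against 13.7% and 19.8% of all genes. The median log2 fold change was 0.55, a 1.47-fold higher signal, with a range of -0.17 to 1.26, against a median of -0.051 over all genes. In 14 of the 20 genes every palmitate array was above every BSA array, a pattern found in 15.9% of all genes. Here a gene is read from its brightest probe set, and a signal compares arrays for 1 gene, never 1 gene with another.

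**Figure D1:**
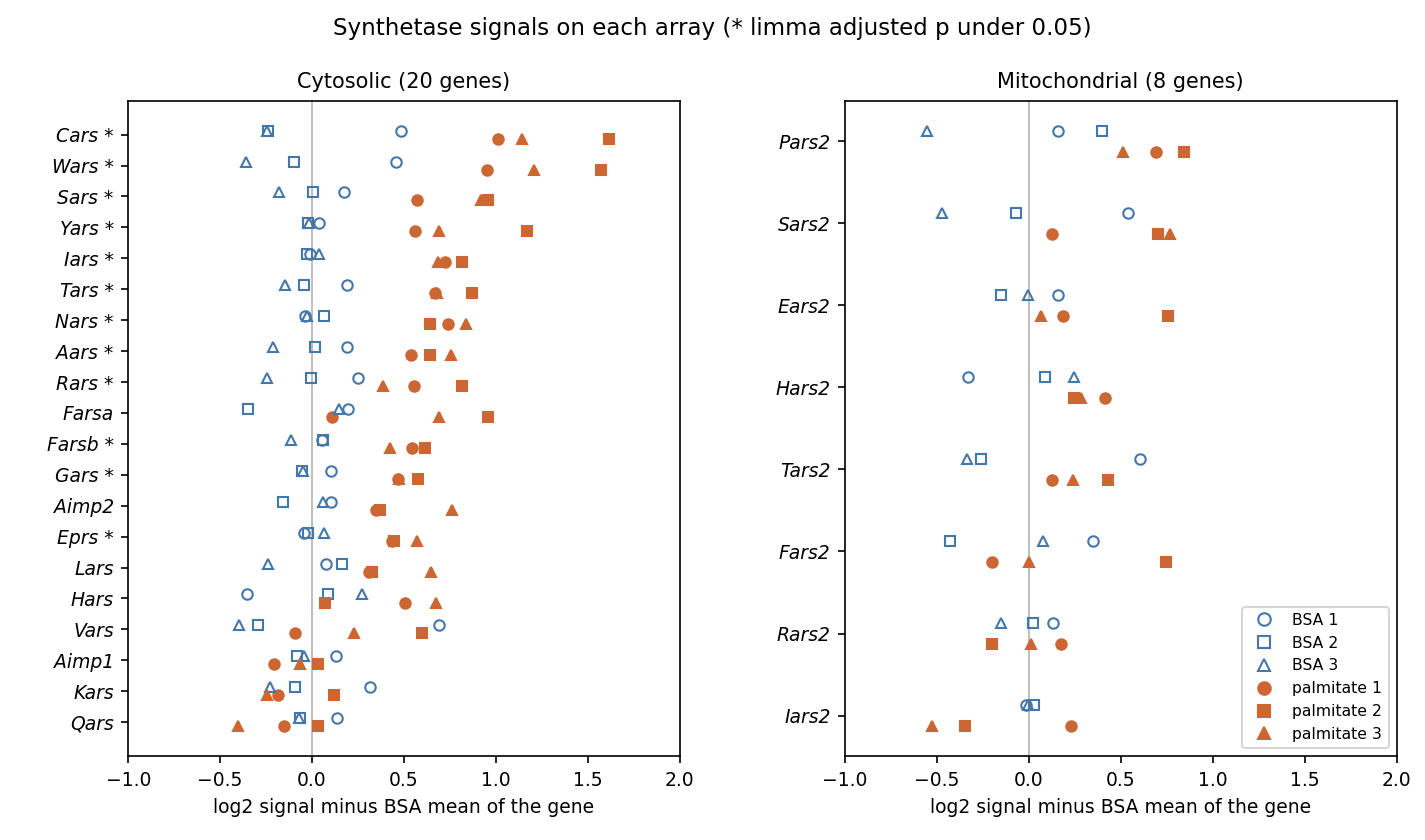
Log2 signal of each gene on each of the 6 arrays minus that gene's mean over the 3 BSA arrays (x axis), for 20 cytosolic genes (left) and 8 mitochondrial genes (right); open blue marks are BSA, filled orange marks palmitate, and an asterisk marks a limma adjusted p under 0.05. The palmitate marks of the 12 starred genes all lie to the right of their BSA marks, whereas in most mitochondrial genes the groups overlap.

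The largest changes were in the enzymes for cysteine and tryptophan. Cars, the cysteinyl-tRNA synthetase, had signals of 1902, 1153 and 1149 on the BSA arrays and 2738, 4169 and 3000 on the palmitate arrays. Its log2 fold change was 1.26 ± 0.24 (SE, n = 3 per group; limma adjusted p = 0.00315), a 2.39-fold higher signal. Wars, the tryptophanyl enzyme, which is also induced by interferon, read 4192, 2848 and 2384 with BSA and 5907, 9063 and 7062 with palmitate. It rose by 1.24 ± 0.22 (adjusted p = 0.00218), and its 3 further probe sets rose by 0.96, 1.06 and 1.11. In both genes BSA array 1 was the highest control and palmitate array 2 the highest treated array, and the groups did not overlap.

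Tyrosyl and seryl enzymes followed. Yars, the tyrosyl enzyme and like Gars a gene mutated in inherited neuropathy, read 1806, 1734 and 1740 with BSA and 2596, 3959 and 2839 with palmitate. The 3 controls were nearly level while palmitate array 2 stood above the other treated arrays, and the log2 fold change was 0.81 ± 0.19 (adjusted p = 0.0109). Sars, which charges serine tRNAs and also the selenocysteine tRNA, read 9504, 8464 and 7421 against 12489, 16362 and 15906. The groups were apart, with a log2 fold change of 0.81 ± 0.15 (adjusted p = 0.00308), and a second probe set of Sars rose by 0.93.

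The enzymes for asparagine, isoleucine and threonine gave changes of nearly equal size. Nars, the asparaginyl enzyme, read 11494, 12332 and 11566 with BSA and 19659, 18373 and 21095 with palmitate, a log2 fold change of 0.74 ± 0.12 (adjusted p = 0.00144). Its second probe set rose by 0.97 (adjusted p = 0.00107). Iars, the isoleucyl enzyme of the multisynthetase complex, read 4230, 4184 and 4378 against 7041, 7510 and 6866. Both groups of Iars were tight and far apart, and the gene rose by 0.74 ± 0.13 (adjusted p = 0.00254), its other probe set by 0.53 (adjusted p = 0.0265). Tars, the threonyl enzyme, read 6996, 5948 and 5540 against 9753, 11228 and 9825, and rose by 0.74 ± 0.14 (adjusted p = 0.00389) with no overlap between groups.

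Aars, the alanyl enzyme, whose loss of editing causes neurodegeneration in the sticky mouse, read 8610, 7630 and 6514 with BSA and 10935, 11744 and 12745 with palmitate. Its log2 fold change was 0.65 ± 0.15 (adjusted p = 0.00914). A second probe set of Aars rose by 0.69 (adjusted p = 0.0338), although there palmitate array 1, at 5184, was below BSA array 1, at 5396. Gars, the glycyl enzyme used in cytosol and mitochondria, read 11238, 10091 and 10127 against 14460, 15613 and 14533, and rose by 0.50 ± 0.12 (adjusted p = 0.0146). The lowest treated value of Gars was well above its highest control.

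Rars, Farsb and Eprs also passed the test, with the highest adjusted p among the cytosolic genes called. Rars, the arginyl enzyme of the complex, read 5982, 4993 and 4241 with BSA and 7381, 8840 and 6568 with palmitate, and rose by 0.59 ± 0.17 (adjusted p = 0.0313). Farsb, the beta subunit of the phenylalanyl enzyme, read 3315, 3326 and 2948 against 4646, 4878 and 4287, and rose by 0.53 ± 0.15 (adjusted p = 0.0264). Eprs, a fused enzyme for glutamate and proline, read 5803, 5875 and 6247 against 8066, 8132 and 8857, and rose by 0.48 ± 0.13 (adjusted p = 0.0235). The groups were apart in these 3 genes. Their other probe sets were mixed: 1 of Farsb rose by 0.75 and 1 stood at 0.11 (adjusted p = 0.820), and those of Eprs stood at 0.44 and 0.45 (adjusted p = 0.0759 and 0.0702).

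The calls for Rars, Farsb, Eprs and Gars depended on single arrays. Rars missed the threshold without BSA array 2, BSA array 3, palmitate array 1 or palmitate array 2, and Farsb without any array but BSA array 1. Eprs missed it without BSA array 2, palmitate array 1 or palmitate array 3, and Gars without BSA array 2. The highest adjusted p among these was 0.117 for Rars, 0.0978 for Farsb, 0.0907 for Eprs and 0.0636 for Gars. The other 8 genes, Aars, Cars, Iars, Nars, Sars, Tars, Wars and Yars, passed whichever array was left out.

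Array scaling mattered more for the count. When the arrays were scaled to the 18 spiked hybridisation controls, the median over all genes moved to -0.35 and that of the cytosolic class to 0.26. Cars, Wars, Sars and Nars then still passed, 4 of 20, where 3.09% of all genes rose. The adjusted p was 0.0666 for Iars, 0.0717 for Tars, 0.0846 for Yars and 0.135 for Aars under that scaling, and between 0.298 and 0.426 for Rars, Gars, Farsb and Eprs. With the AFFX-Bio and AFFX-Cre controls alone, 5 of 20 passed (3.61% of all genes rose), and with the AFFX-r2 controls alone 2 of 20 (2.61%). These scalings all use probe sets named for bio and cre controls, and the 18 include both sets, so they are not independent of each other. The cause of the shift in the controls was not tested.

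**Figure D2:**
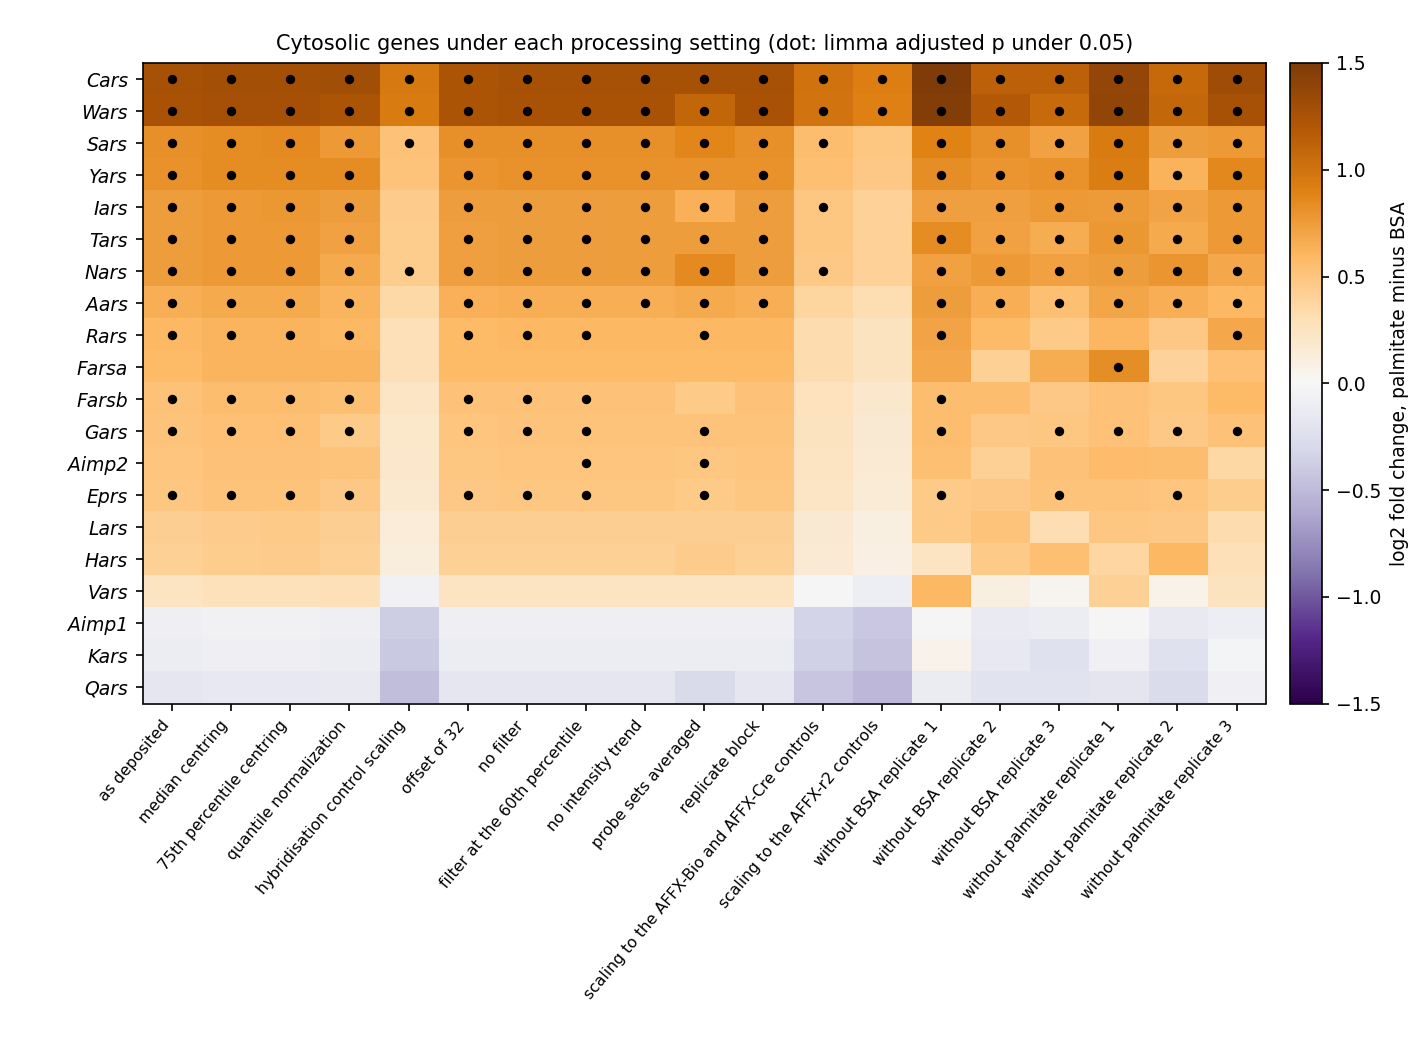
Log2 fold change, palmitate minus BSA, of each of the 20 cytosolic genes (y axis) as deposited and under 18 other settings (x axis), with colour from purple (lower) to orange (higher) and a dot where the limma adjusted p was under 0.05. Cars and Wars keep a dot in every column, and the 3 columns scaled to spiked controls hold 4, 5 and 2 dots.

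Of the 8 cytosolic genes that did not pass, 3 had estimates below 0 and the others above. Farsa, the alpha subunit that pairs with Farsb, read 2652, 1820 and 2566 with BSA and 2490, 4486 and 3729 with palmitate, so palmitate array 1 lay among the controls. Its log2 fold change was 0.58 ± 0.23 (95% interval 0.082 to 1.08; adjusted p = 0.0994), and it passed without palmitate array 1 (adjusted p = 0.0275). Aimp2, the scaffold at the core of the complex, read 3094, 2582 and 3001 against 3675, 3729 and 4888, at 0.49 ± 0.17 (adjusted p = 0.0606), with a second probe set at 0.48. Lars, the leucyl enzyme, also known as a leucine sensor for mTORC1, read 5751, 6124 and 4623 against 6769, 6838 and 8563, at 0.43 ± 0.16 (adjusted p = 0.0858). In Aimp2 and Lars the groups did not overlap.

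Hars, the histidyl enzyme, stood at 0.42 ± 0.20 (adjusted p = 0.176), with a second probe set at 0.49 (adjusted p = 0.140), and its groups overlapped in both. Vars, the valyl enzyme, had the largest standard error among the cytosolic genes, reading 3685, 1861 and 1728 with BSA against 2140, 3452 and 2667 with palmitate. Its highest value was a control, and its log2 fold change was 0.24 ± 0.28 (95% interval -0.36 to 0.85; adjusted p = 0.587).

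Kars, Qars and Aimp1 had estimates below 0, and all 3 belong to the multisynthetase complex. Kars, the lysyl enzyme used in both compartments, read 6253, 4713 and 4285 with BSA and 4411, 5454 and 4235 with palmitate, at -0.10 ± 0.18 (95% interval -0.49 to 0.28; adjusted p = 0.731). Aimp1, a scaffold that can be cut to release a cytokine, read 6335, 5468 and 5621 against 5024, 5920 and 5540, at -0.080 ± 0.14 (interval -0.39 to 0.23; adjusted p = 0.740). The groups overlapped in both. Qars, the glutaminyl enzyme, stood at -0.17 ± 0.17 (interval -0.54 to 0.19; adjusted p = 0.513), and its 2 further tested probe sets at -0.25 and -0.45. In the last of these every palmitate array was below every BSA array (2587, 2607 and 3319 against 1940, 2289 and 1969; adjusted p = 0.0896).

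Of the 8 members of the multisynthetase complex that the symbol rule takes, 3 rose (Iars, Rars and Eprs), with a median log2 fold change of 0.46. The scaffold Eef1e1 lies outside the rule and is not counted here, and it rose by 0.89. Of the cytosolic genes outside the complex 9 of 12 rose, with a median of 0.69, where 7.92% of all genes rose. The difference between these subsets was not tested. By catalytic fold the enzymes were alike in their counts: 5 of 8 class I genes rose with a median of 0.66, and 6 of 9 class II genes with a median of 0.58. The class I enzymes were those for cysteine, isoleucine, leucine, glutamine, arginine, valine, tryptophan and tyrosine, and the fused Eprs was left out of both classes.

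The mitochondrial enzymes gave no call. Of 8 genes 0 rose and 0 fell by limma, and 1, Pars2, was higher at an unadjusted p under 0.05, as were 13.7% of all genes. Their log2 fold changes ran from -0.22 to 0.68, with a median of 0.29, and 6 of 8 were above 0, as were 45.9% of all genes. Their standard errors were larger than those of the cytosolic genes, with a median of 0.28 against 0.16, so changes of the size seen in Gars or Eprs were not detectable at this precision in most of them. Whether the mitochondrial and cytosolic classes differ cannot be read from these counts, and the pairs below compare them directly.

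Pars2, the mitochondrial prolyl enzyme, read 482, 569 and 293 with BSA and 696, 774 and 615 with palmitate. Its groups did not overlap, and its log2 fold change was 0.68 ± 0.31 (95% interval 0.0064 to 1.36; adjusted p = 0.150). Hars2, the histidyl enzyme, read 461, 617 and 688 against 773, 689 and 708, at 0.32 ± 0.26 (interval -0.24 to 0.87; adjusted p = 0.432). Its lowest palmitate value was barely above its highest control. Sars2, the seryl enzyme, read 475, 311 and 235 against 356, 531 and 555, at 0.53 ± 0.37 (interval -0.28 to 1.35; adjusted p = 0.357), with overlap.

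Ears2, the glutamyl enzyme, read 490, 396 and 439 with BSA and 500, 744 and 460 with palmitate, and stood at 0.34 ± 0.30 (adjusted p = 0.483). Fars2, the phenylalanyl enzyme, a single chain in mitochondria, read 998, 582 and 828 against 682, 1313 and 783, at 0.18 ± 0.30 (adjusted p = 0.715). Palmitate array 2 was the highest array in both genes. Tars2, the threonyl enzyme, had probe sets of opposite sign, 0.27 ± 0.26 for the brighter (adjusted p = 0.523) and -0.31 ± 0.26 for the other (adjusted p = 0.438). Rars2, the arginyl enzyme, was level at -0.0032 ± 0.17 (interval -0.38 to 0.37; adjusted p = 0.994), reading 2555, 2374 and 2100 against 2639, 2035 and 2358. Iars2, the isoleucyl enzyme, read 903, 930 and 909 against 1069, 718 and 635, at -0.22 ± 0.24 (adjusted p = 0.585).

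Across probe sets, 44 of 51 were bright enough to test, 35 cytosolic and 9 mitochondrial. Of the cytosolic ones 20 rose and 0 fell, where 8.63% of all 13575 probe sets rose and 10.6% fell. All 20 belong to the 12 genes called above, so this count repeats the gene result and is no separate support. Of the 9 mitochondrial probe sets 0 changed by limma, with 1 higher at an unadjusted p under 0.05. Left out as dim were 1 probe set each of Cars, Farsb, Qars, Fars2 and Hars2 and 2 of Ears2. The Hars2 one read 257, 120 and 184 with BSA and 369, 402 and 260 with palmitate, and the dim Cars one, at 21.4 to 114.8 over the 6 arrays, overlapped between groups.

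**Figure D3:**
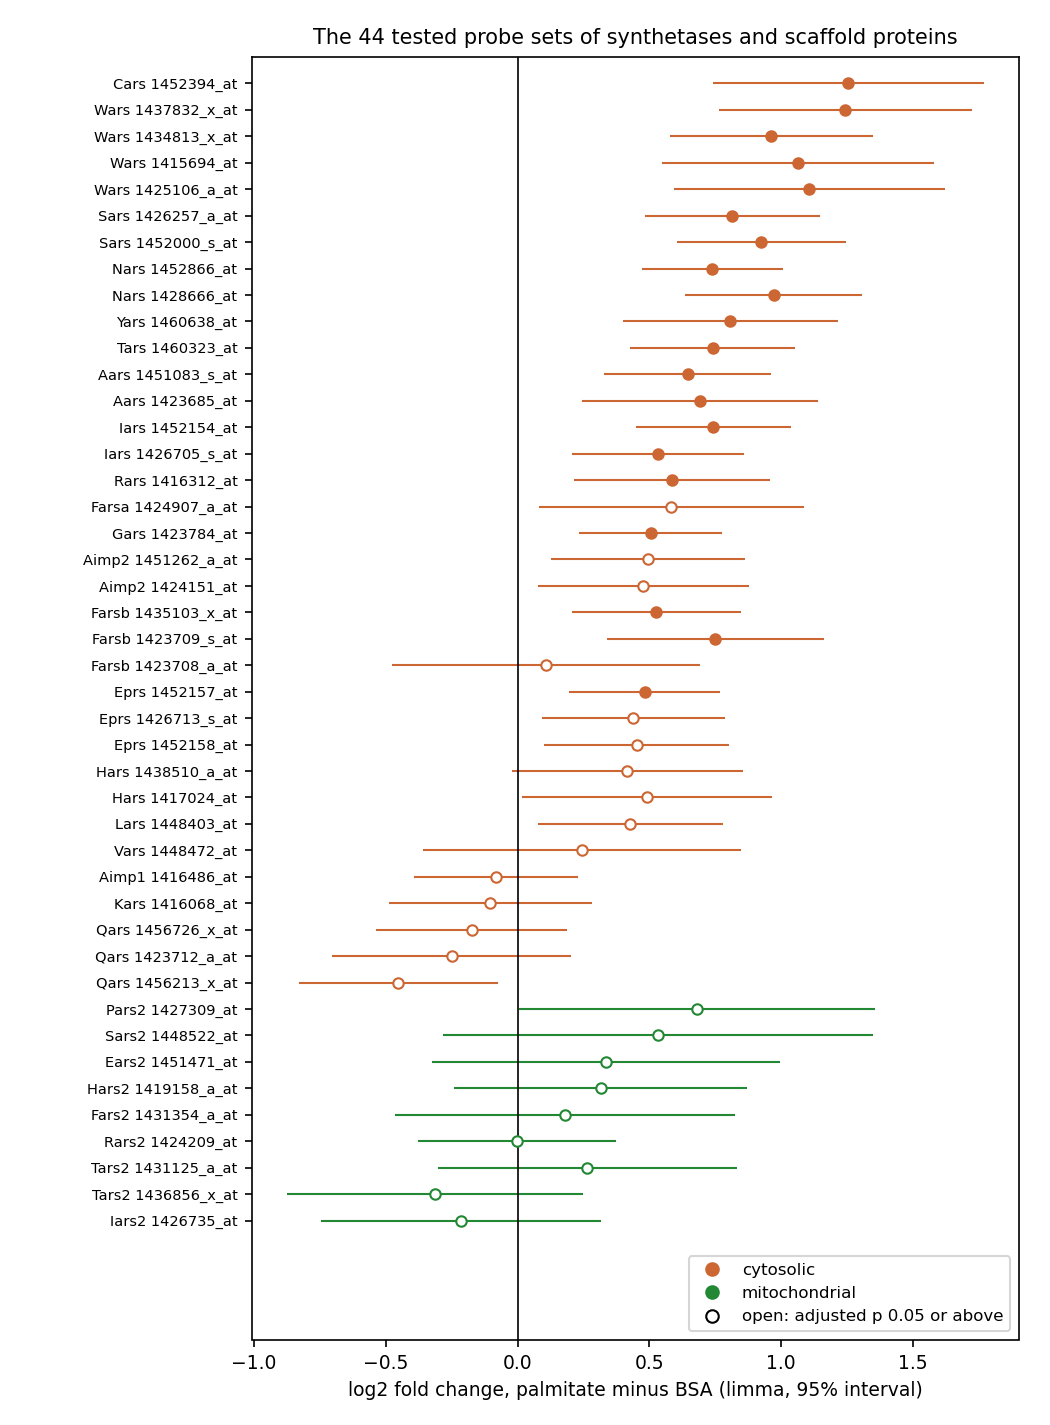
Log2 fold change, palmitate minus BSA, with its 95% interval from limma (x axis) for the 44 tested probe sets (y axis, gene and probe set), cytosolic in orange and mitochondrial in green; filled marks have an adjusted p under 0.05. The 4 Wars probe sets are all filled, the 3 of Qars lie below 0, and all 9 mitochondrial marks are open.

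Not every array contributed alike. Relative to the BSA mean, the median cytosolic gene stood at 0.13, -0.035 and -0.092 on BSA arrays 1 to 3 and at 0.52, 0.63 and 0.68 on palmitate arrays 1 to 3. The mitochondrial medians were 0.16, -0.023 and -0.080, then 0.18, 0.57 and 0.15, so palmitate array 2 stood above the other two there. BSA array 1 was the highest control in 14 of 20 cytosolic genes and palmitate array 2 the highest treated array in 14 of 20, against 40.7% and 39.0% of all genes. Palmitate array 2 also had the lowest log2 difference between the Gapdh control probe sets at either end of the message (3' minus 5'), -0.20 against 0.19 to 0.35 elsewhere. The part of this in the synthetase values was not tested.

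Setting each mitochondrial enzyme against its cytosolic counterpart on the same array removes array scaling from the comparison. Each value below is log2 of the cytosolic over the mitochondrial signal, minus its BSA mean. For isoleucine (Iars over Iars2) it was 0.0067, -0.052 and 0.046 on the BSA arrays and 0.50, 1.16 and 1.21 on the palmitate arrays, a change of 0.96. For arginine (Rars over Rars2) it was 0.12, -0.032 and -0.091 against 0.38, 1.01 and 0.37, a change of 0.59. In both, all palmitate arrays were above all BSA arrays. For threonine (Tars over Tars2) it was -0.41, 0.22 and 0.19 against 0.54, 0.44 and 0.44, a change of 0.48. For phenylalanine (Farsa over Fars2) it was -0.15, 0.083 and 0.070 against 0.31, 0.21 and 0.69, a change of 0.40. These pairs did not overlap between groups either, though BSA array 1 was well below the other controls.

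The remaining pairs overlapped between groups. The change was 0.28 for serine, 0.15 for glutamate, 0.10 for histidine and -0.20 for proline, where Pars2 exceeded Eprs in its change. In the exact two-sided permutation test over 3 against 3 arrays, the isoleucine, arginine, threonine and phenylalanine pairs gave p = 0.1, the smallest that design allows, and adjusted over the 8 pairs p = 0.2. The test therefore could not pass 0.05 for any pair. The median change over the 8 pairs was 0.34, and 0.18 without BSA array 1. Eprs enters 2 pairs, so the 8 are not independent.

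**Figure D4:**
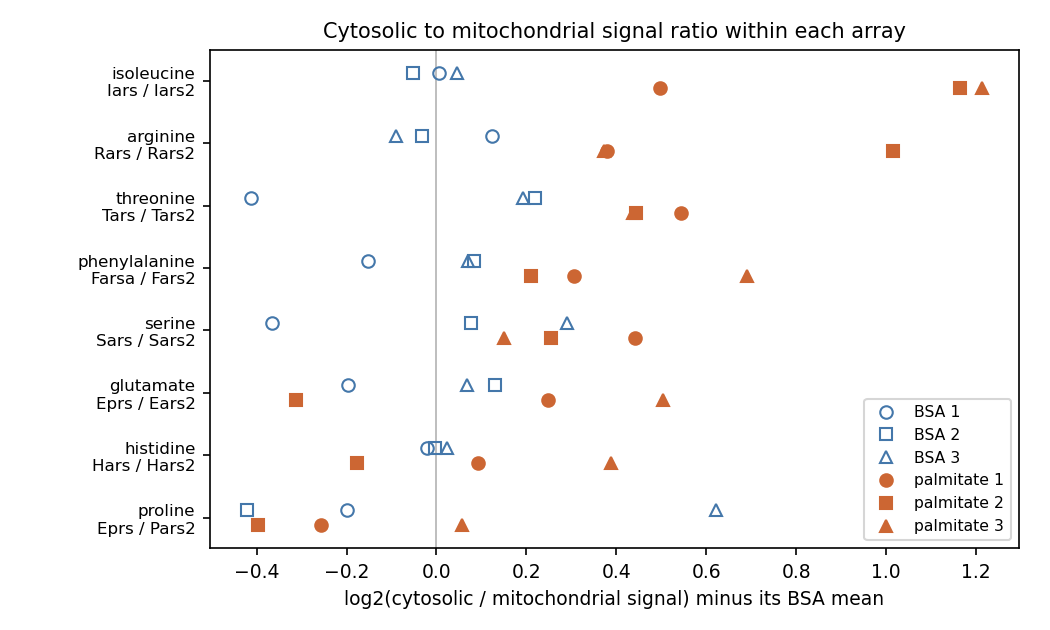
Log2 ratio of the cytosolic to the mitochondrial signal of each amino acid on each array, minus its mean over the BSA arrays (x axis), for 8 pairs (y axis); open blue marks are the 3 BSA arrays and filled orange marks the 3 palmitate arrays. The isoleucine pair shows the largest separation, with palmitate arrays at 0.50 to 1.21 and BSA arrays at -0.052 to 0.046.

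Genes around the synthetases set these values in their pathway. Of the partners of aminoacylation outside the symbol rule, 1 of 10 tested rose and 0 fell, near the 7.92% of all genes that rose, with a median log2 fold change of -0.014. Under each of the 3 scalings to spiked controls 1 rose and 1 fell. The one that rose was Eef1e1, the third scaffold of the multisynthetase complex, at 0.89 ± 0.14 (adjusted p = 0.00132), and it passed under every setting tried. Of the 3 scaffolds, Eef1e1 thus rose, Aimp2 stood at 0.49 and Aimp1 at -0.080.

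Among ATF4 targets in amino acid supply and stress, 25 of 35 tested genes rose and 0 fell, with a median of 0.93. Over all genes 7.92% rose and 12.3% fell, and the list was chosen with earlier results of these data known. Atf3, a stress transcription factor, rose by 2.51, Ddit3, the transcription factor CHOP, by 1.56, Cth, which makes cysteine from cystathionine, by 1.61 and Slc3a2, the heavy chain of amino acid transporters, by 1.29. Atf4 itself, named after its value was seen, rose by 0.97 (adjusted p = 0.000407). With the arrays scaled to all 18 spiked controls 17 of the 35 rose and 2 fell, where 3.09% of all genes rose. The counts were 19 and 2 with the AFFX-Bio and AFFX-Cre controls alone (3.61% of all genes rose). They were 14 and 2 with the AFFX-r2 controls alone (2.61%).

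Of the genes for subunits of the translation factor eIF2 and those that act on it, 4 of 13 rose and 0 fell, with a median of 0.20. Over all genes 7.92% rose and 12.3% fell. Ppp1r15a, the stress-induced phosphatase subunit that also counts among the ATF4 targets, rose by 1.49 (adjusted p = 0.000195). Impact, an inhibitor of the amino acid sensor GCN2, rose by 0.56, the eIF2 beta subunit Eif2s2 by 0.44 and the endoplasmic reticulum kinase gene Eif2ak3 by 0.62 (adjusted p = 0.0247, 0.0265 and 0.0477). The calls of Impact and Eif2ak3 were lost without any 1 array and that of Eif2s2 without 4 of the 6. Thus 1 or 2 of the 13 rose when an array was left out, and 1 of 13 is near the share of all genes that rose. Under each of the 3 scalings to spiked controls 1 rose and 1 fell, where 2.61% to 3.61% of all genes rose. The median was -0.097 with all 18 controls.

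The machinery that uses the charged tRNAs in the cytosol gave 0 calls among 12 elongation and release factors by limma, with 2 higher and 0 lower at an unadjusted p under 0.05 and a median of 0.23. Etf1, the release factor, stood at 0.40 (adjusted p = 0.0688). With the probe sets of a gene averaged, 2 of the 12 rose, Etf1 among them (adjusted p = 0.0494), where 9.54% of all genes rose. The list median was -0.070 with the arrays scaled to all 18 spiked controls. Of the mitochondrial translation factors and tRNA enzymes 2 of 18 rose and 0 fell, near the 7.92% of all genes that rose, with a median of 0.12. They were Pus1, a pseudouridine synthase, at 0.78 (adjusted p = 0.0297), and Mterf3, a regulator of mitochondrial gene expression, at 0.51 (adjusted p = 0.0483). Pus1 missed the threshold without any array but BSA array 1, and Mterf3 without any 1 array, leaving 0 or 1 call in that list. Under each of the 3 scalings to spiked controls 0 rose and 1 fell, with medians of -0.17, -0.13 and -0.21.

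**Figure D5:**
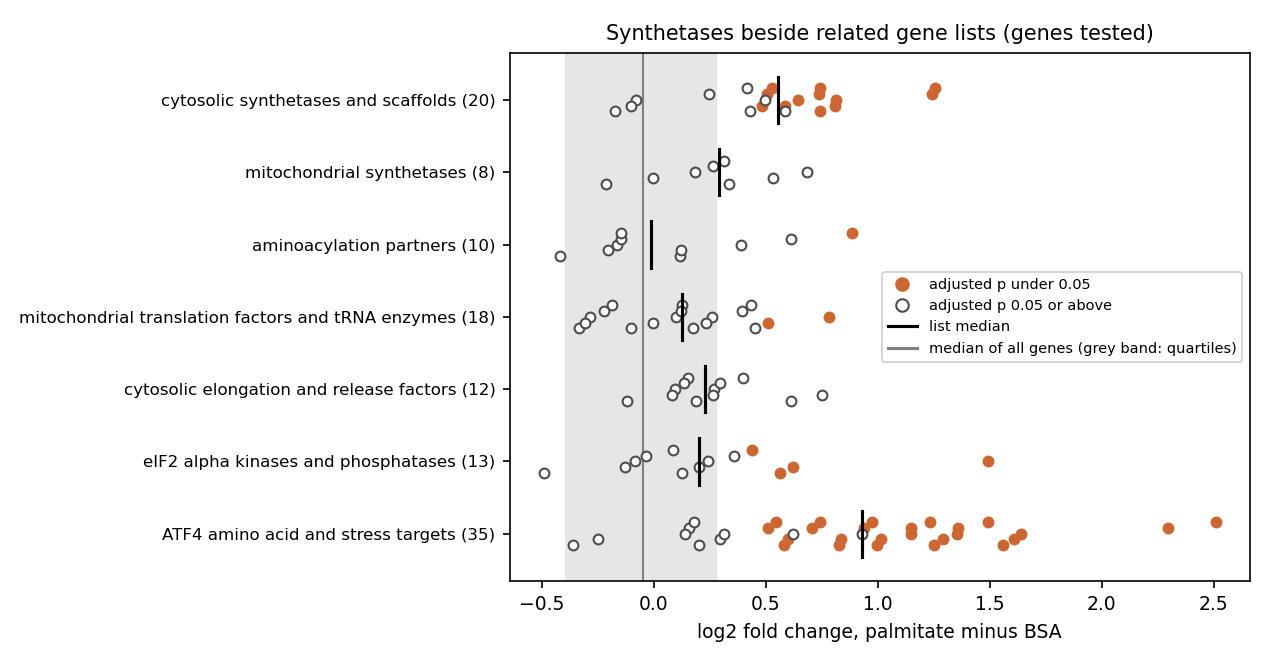
Log2 fold change, palmitate minus BSA, of each tested gene (points; filled where the limma adjusted p was under 0.05) in the 2 synthetase classes and 5 related lists (y axis, number tested in brackets), with list medians as black bars, the median of all genes as a grey line and its quartiles as a grey band. The cytosolic synthetases have a median of 0.55, between 0.93 for the ATF4 targets and 0.23 for the elongation and release factors.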

How the data were processed

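The deposited series table holds the authors' MAS 5 intensity for each probe set and array, per the submitters' processing notes and the design text. MAS 5 scales each array to a common trimmed mean, so levels are relative to the array total. Genes were named from the platform annotation: 20380 probe sets carry 1 symbol, 691 several and 1555 none, and only the first kind named a gene. The 64 control probe sets were left out, log2 was taken with no offset, and of 22626 probe sets the 13575 whose average log2 value exceeded the 40th percentile, near a signal of 267, were tested with limma 3.58.1 (R 4.3.3; intensity trend, two-sided, Benjamini-Hochberg over all 13575, threshold 0.05). A gene is its brightest tested probe set. Precision is set by 3 arrays a group, with a median SE of 0.22 over all tested probe sets. The fit was tested on simulated data. Alternatives changed the scaling, offset, filter, trend, probe set rule, replicate block and the arrays used. Scaling to each set of spiked control probe sets alone, and the effect of the alternatives on the pair ratio, were added after seeing the data. Each member gene is named, with all 6 values where it passed; of each other list up to 4 genes that passed, by p, and Etf1 and Atf4, are named. The members and lists were chosen with earlier results of these data known. Protein sequences were not used here, and 1 further promoter stretch is not reported here.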

Additional observations from a re-analysis of the deposited data

How the results depend on the processing

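Scaling to the 18 spiked controls gave 4 cytosolic genes called, a cytosolic median of 0.26 and a mitochondrial median of -0.0060, and turned Fars2 (-0.11), Tars2 (-0.031) and Vars (-0.052). It gave 475 probe sets higher and 3004 lower, against 1172 and 1437 as deposited. The AFFX-Bio and AFFX-Cre controls alone gave 5, 0.30 and 0.031, with Fars2 at -0.077 and Vars at -0.014. The AFFX-r2 controls alone gave 2, 0.22 and -0.043, with Fars2 at -0.15, Hars2 at -0.018, Tars2 at -0.068 and Vars at -0.089. The filter at the 60th percentile left 3 mitochondrial genes (median -0.0032) and 3 pairs (median ratio change 0.59), through fewer genes tested. Averaged probe sets turned Tars2 (-0.024). Rars2 turned under median centring (0.024), 75th percentile centring (0.028) and quantile normalization (0.022).

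Leaving out 1 array at a time gave 1579 (without BSA array 2) to 2315 probe sets called, 8 to 12 cytosolic genes, and a median pair ratio change of 0.18 to 0.43. Kars ranged from -0.22 to 0.056, Rars2 from -0.093 to 0.095 and Fars2 from -0.10 to 0.37. The replicate numbers did not pair the arrays: deviations of same-numbered arrays correlated at -0.23, -0.13 and 0.0091, and 0 of 6 arrays correlated best with its own number. With the replicate number as a block, 8 cytosolic genes and 1973 probe sets were called, and without the intensity trend 8 and 2039. In each of the settings run 0 mitochondrial genes were called. Of the 12 called cytosolic genes, 8 passed in every setting but the 3 control scalings, and Cars and Wars in all. Aimp2 passed under the stricter filter (adjusted p = 0.0489) and with probe sets averaged (0.0424). With the block, 1 of the 13 eIF2 genes and 1 of the 18 mitochondrial translation genes rose, where 5.72% of all genes rose.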
